A study of Mus musculus with 6 samples.

Results

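Proteoglycans are proteins that carry long sulfated sugar chains or belong to families defined by such proteins, and they fill and order the space around collagen in the heart wall. The genes described here were the 7 small leucine-rich proteoglycans Bgn, Dcn, Aspn, Lum, Fmod, Prelp and Ogn together with Vcan, which encodes versican. They were taken by symbol from the table's Ensembl gene IDs, each symbol matched 1 ID, and they made up 8 of 47729 genes. All 8 passed the filter on low counts, which kept 17365 genes.

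RNA was sequenced from left ventricular myocardium of mice on day 9 of pressure overload by TAC, transverse aortic constriction, in which a band around the aorta raises the work of the left ventricle. There were 3 libraries labelled Treg, which the series title links to systemic delivery of regulatory T cells induced in culture and deprived of CD28 signalling. The other 3 were labelled control, and both groups had the operation; the labels state neither what the controls received nor the mice's strain, age or genotype. The title frames the comparison as one about pressure-driven fibrosis, and no unoperated heart was analysed here. Library totals lay between 28939759 and 29981410 counts.

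Small leucine-rich proteoglycans are compact secreted proteins whose curved leucine-rich repeats sit on collagen fibrils and influence fibril width and spacing. Biglycan and decorin carry chondroitin or dermatan sulfate chains, lumican and fibromodulin can carry keratan sulfate, and several family members bind TGF-beta. Versican is much larger: it binds hyaluronan at one end, carries chondroitin sulfate, and marks the loose provisional matrix of developing and injured tissue. In the heart these genes are expressed chiefly by fibroblasts. In bulk tissue, fewer cells of a type and less RNA per cell cannot be told apart.

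Several members sit side by side in the genome (GENCODE M21 on GRCm38). Dcn (chromosome 10, 97479609 to 97518143) is followed on the same strand by Lum (97565128 to 97572703), Kera and Epyc. Aspn (chromosome 13, 49544443 to 49567565) and Ogn (49608046 to 49624501) lie in a row with their relatives Ecm2 and Omd. Prelp (chromosome 1, 133910304 to 133921414) lies near Fmod (134037254 to 134048277) on the other strand. Bgn is on chromosome X (73483602 to 73495933), and Vcan is on chromosome 13 (89655312 to 89742509), far from the Aspn and Ogn row. Aspn and Ogn lie inside Cenpp, a gene of the opposite strand whose level was 1.51 to 2.18 CPM (counts scaled to a common library size of 1e6 after TMM normalization). Prelp overlaps the antisense transcript Gm15851, whose counts came to 9.06% of those of Prelp, and no source used here states whether strand was used in the counting.

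Promoter stretches of 4 members are printed. In the most divergent library, described below, Fmod, Ogn and Aspn were at their lowest and Vcan was at its highest. Prelp was also at its lowest there, and its stretch is described but not printed, so the 4 are not a full set. Each line gives the 250 bases before the RefSeq start on GRCm38.p6, read 5′ to 3′ along the gene's strand, with CpG dinucleotides in capitals. The Fmod stretch is chr1:134037004-134037253 on the plus strand, that of Ogn is chr13:49607765-49608014 on the plus strand, that of Aspn is chr13:49544193-49544442 on the plus strand, and that of Vcan is chr13:89742513-89742762 on the minus strand.
Fmod: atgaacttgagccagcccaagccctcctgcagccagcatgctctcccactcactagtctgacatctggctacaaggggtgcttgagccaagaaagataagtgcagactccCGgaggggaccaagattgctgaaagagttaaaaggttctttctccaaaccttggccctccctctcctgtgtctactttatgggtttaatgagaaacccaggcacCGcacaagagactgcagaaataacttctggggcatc
Ogn: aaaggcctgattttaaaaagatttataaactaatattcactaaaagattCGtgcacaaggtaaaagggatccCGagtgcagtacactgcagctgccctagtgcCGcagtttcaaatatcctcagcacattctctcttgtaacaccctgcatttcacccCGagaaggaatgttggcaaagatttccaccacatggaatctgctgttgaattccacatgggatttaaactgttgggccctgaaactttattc
Aspn: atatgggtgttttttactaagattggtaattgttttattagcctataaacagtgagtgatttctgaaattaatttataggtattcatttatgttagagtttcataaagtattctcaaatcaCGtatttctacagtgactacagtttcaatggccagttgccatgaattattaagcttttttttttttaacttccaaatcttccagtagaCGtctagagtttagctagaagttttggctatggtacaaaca
Vcan: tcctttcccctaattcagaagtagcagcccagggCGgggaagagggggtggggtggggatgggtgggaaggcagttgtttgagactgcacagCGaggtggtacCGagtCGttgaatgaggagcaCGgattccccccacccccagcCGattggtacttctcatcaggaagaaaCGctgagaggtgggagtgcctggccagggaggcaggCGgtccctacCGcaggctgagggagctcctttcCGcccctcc

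The table of promoters held 6 of the 8 members; Dcn and Lum were not among them. The Vcan stretch held 10 CpG dinucleotides and 62.4% G or C. Fmod held 2 CpG and 51.2%, Ogn 4 and 42.0%, and Aspn 2 and 30%, against a median of 6 CpG and 52.4% over 32851 promoters. Only 1.47% of promoters had a lower G and C content than that of Aspn. Bgn had 7 CpG and 64.4%, and Prelp 5 and 55.6%. The letters TATAAA, searched on both strands, were found in Ogn and Aspn and in 12.4% of all promoters. The letters CCAAT, on both strands, were found in Vcan, Aspn and Prelp and in 33.8% of all promoters. A match describes the letters of the window and shows no binding.

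Per length, biglycan and decorin transcripts led the group. On the scale of CPM per kilobase of annotated exon, Bgn averaged 130 ± 29.02 in Treg libraries and 147 ± 44.4 in control libraries (SD, n = 3 each, as throughout). Dcn averaged 139 ± 5.38 in Treg libraries and 113 ± 16.8 in control libraries. Below them came Lum, at 91.5 ± 19.9 in Treg and 58.0 ± 17.6 in control, then Aspn (57.2 ± 8.94 and 61.9 ± 27.7) and Ogn (46.1 ± 6.03 and 31.1 ± 17.3). Prelp, Vcan and Fmod closed the order, at 19.5 ± 3.24, 6.16 ± 1.49 and 6.11 ± 3.58 in Treg libraries and 12.2 ± 7.09, 12.1 ± 5.59 and 3.90 ± 3.64 in control libraries. Neighbours in this order overlapped in their 6-library ranges. Bgn exceeded Dcn in 4 of 6 libraries and Lum exceeded Aspn in 4, whereas Dcn exceeded Lum in 6 of 6, and so did Aspn over Ogn and Ogn over Prelp. Exon lengths are unions over all isoforms, 14462 bases for Vcan and 6099 for Bgn, so a gene that mostly uses a short isoform is understated.

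**Figure D1:**
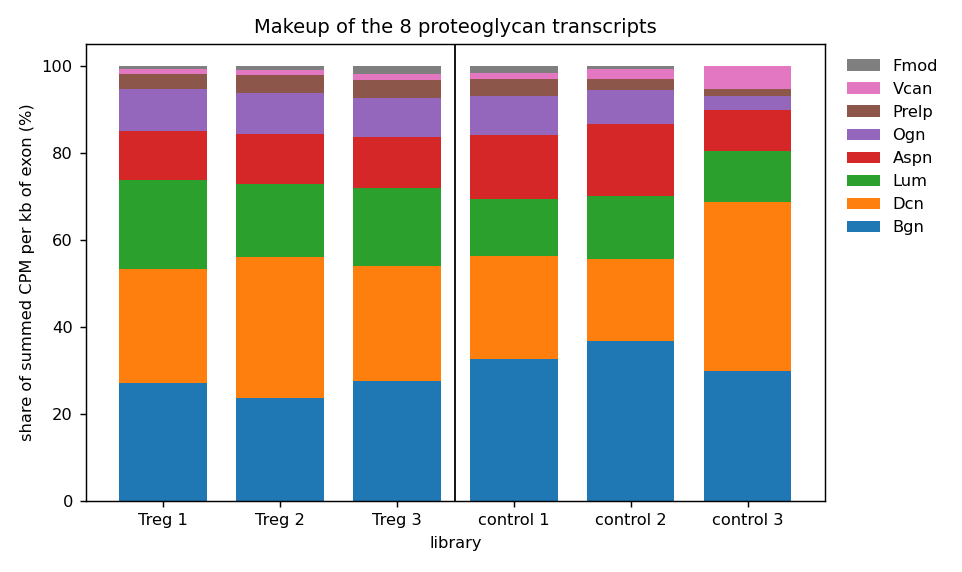
Makeup of the 8 proteoglycan transcripts in each library, as the share in percent of their summed CPM per kilobase of exon (vertical axis; libraries on the horizontal axis, Treg left of control). Bgn and Dcn together form the lower part of every bar, Lum takes 16.7% to 20.3% in Treg libraries against 11.7% to 14.4% in control libraries, and control replicate 3 has the widest Dcn and Vcan segments.

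In the makeup of this pool, only the shares of Lum and Bgn did not overlap between the groups. No matching background over all genes was computed for these shares. Lum held 20.3%, 16.7% and 18.0% of the summed CPM per kilobase in the Treg libraries, against 13.0%, 14.4% and 11.7% in the control libraries, with no overlap. Bgn held 27.0%, 23.5% and 27.6% in the Treg libraries and 32.5%, 36.7% and 29.7% in the control libraries, again without overlap but in the other direction. These shares were examined after the values were seen and were not tested. A share falls when another member rises, so the directions are not independent.

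By edgeR's quasi-likelihood test with Benjamini-Hochberg adjustment over all 17365 genes, 0 of the 8 members passed an adjusted p of 0.05 between Treg and control. The same held for 0% of all genes tested, and the smallest adjusted p of any gene was 0.0847. DESeq2 called 0 of the 8 as well, against 3.79% of the genes it gave an adjusted p. At an unadjusted p under 0.05 there was 1 member higher, Lum, against 8.23% of all genes, and 1 lower, Vcan, against 8.31%. Fold changes were above 0 for 5 of the 8 members and for 48.0% of all genes; the members' median log2 fold change was 0.44, against −0.02 over all genes. That median rested on 2 libraries: omitting control replicate 3 brought it to 0.13, and omitting Treg replicate 3 to 0.17. For 1 member, Dcn, every Treg library lay above every control library, as it did for 13.7% of all genes. For 0 members did every Treg library lie below every control library, against 11.7% of all genes.

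**Figure D2:**
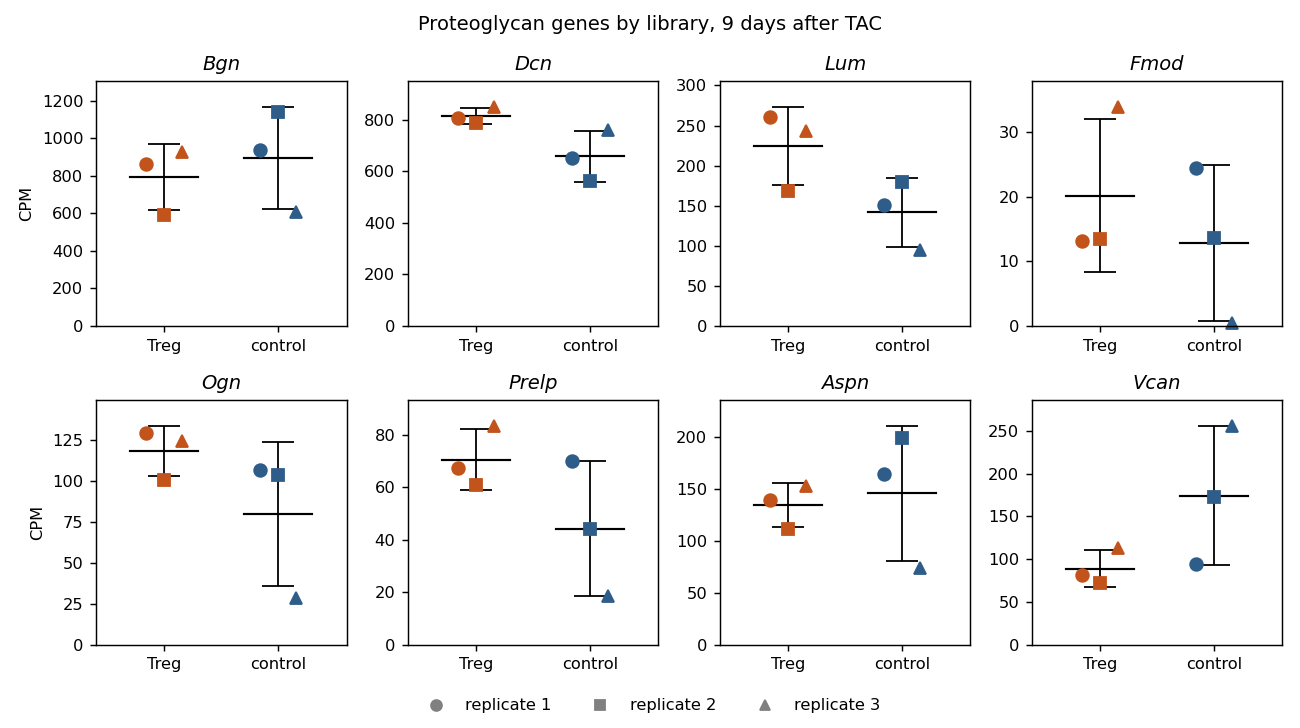
CPM (vertical axes, each starting at 0) of the 8 genes in each library, Treg left and control right; symbols mark the replicate number, the long bar the mean and the whiskers 1 SD. Dcn separates the groups without overlap, while control replicate 3 is the lowest point for Lum, Fmod, Ogn, Prelp and Aspn and the highest for Vcan.

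Decorin, a collagen-binding proteoglycan that also binds TGF-beta, was the steadiest member. Dcn stood at 806, 787 and 849 CPM in the Treg libraries, against 652, 564 and 760 CPM in the control libraries. The lowest Treg library thus lay just above the highest control, replicate 3. Its log2 fold change, Treg over control, was 0.305 ± 0.16 (SE; edgeR adjusted p = 0.38), and it was 0.205 to 0.42 when single libraries were left out.

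Biglycan, the closest relative of decorin and a ligand of Toll-like receptors when released from matrix, overlapped fully. Bgn stood at 864, 593 and 926 CPM in the Treg libraries and at 936, 1143 and 606 CPM in the control libraries. Both groups held a library near 600 CPM, Treg replicate 2 and control replicate 3. Between the groups its log2 fold change was −0.17 ± 0.27 (edgeR adjusted p = 0.765). Leaving out control replicate 2, the highest library, gave 0.04, and leaving out control replicate 3 gave −0.39.

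Asporin, which carries a run of aspartate residues and binds collagen and TGF-beta, varied more like biglycan than like its chromosomal neighbour Ogn. Aspn stood at 140, 111 and 153 CPM in the Treg libraries and at 165, 199 and 73.3 CPM in the control libraries. The controls lay on both sides of the Treg libraries. Its log2 fold change was −0.12 ± 0.34 (edgeR adjusted p = 0.881). Omitting control replicate 2 gave 0.17, and omitting control replicate 3 gave −0.44. Over the 6 libraries log2 Aspn correlated with log2 Bgn at 0.91 and with log2 Ogn at 0.82. Over the 5 libraries other than control replicate 3 these values were 0.97 and −0.03. Such correlations over so few libraries, which also share scaling factors, are given as descriptions.

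Lumican, a keratan sulfate proteoglycan that limits fibril width, stood at 260, 169 and 243 CPM in the Treg libraries and at 150, 180 and 95.3 CPM in the control libraries. Only control replicate 2 reached into the Treg range, above Treg replicate 2. A log2 fold change of 0.66 ± 0.27 (edgeR adjusted p = 0.287) was estimated. It kept a positive sign in every fit run, and was 0.44 without control replicate 3.

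Prelp encodes a proteoglycan of basement membranes and tendon-like tissue. It stood at 67.5, 60.7 and 83.5 CPM in the Treg libraries and at 70.0, 44.0 and 18.7 CPM in the control libraries. Control replicate 1 lay among the Treg libraries and the other controls below them. This gave a log2 fold change of 0.67 ± 0.42 (edgeR adjusted p = 0.436), 0.31 without control replicate 3, and 1.18 without control replicate 1.

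Osteoglycin, also called mimecan, is a small keratan sulfate proteoglycan of bone and connective tissue. Ogn stood at 130, 101 and 125 CPM in the Treg libraries and at 107, 104 and 28.6 CPM in the control libraries. Controls 1 and 2 lay within the Treg range and control replicate 3 far below it. Its log2 fold change was 0.57 ± 0.44 (edgeR adjusted p = 0.525), and 0.17 without control replicate 3.

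Fibromodulin, which shares a collagen site with lumican, was the least abundant and the most variable of the small proteoglycans among the members. Fmod stood at 13.2, 13.5 and 33.9 CPM in the Treg libraries and at 24.5, 13.7 and 0.471 CPM in the control libraries. The last of these, control replicate 3, rests on 14 counts, where the other libraries had 375 to 1078. The log2 fold change was 0.65 ± 0.98 (edgeR adjusted p = 0.75). Leaving out control replicate 3 gave 0.08, leaving out Treg replicate 3 gave 0.05, and leaving out both gave −0.52. Leaving out control replicate 1 gave 1.51. Treg replicate 3 also held Myl7, an atrial muscle transcript chosen after its values were seen, at 37.7 CPM, against 0.0330 to 0.216 elsewhere. The 6 atrial markers summed to 609, 666 and 1062 CPM in the Treg libraries and 1480, 834 and 242 CPM in the control libraries. Only 3 of them, Myl7 not included, passed the filter on low counts. Those stood at a median of 0.64 above their 6-library means (log2) in Treg replicate 3, and also in control replicate 1. Their median log2 fold change was 0.17. It was −0.35 without Treg replicate 3 and −0.18 without control replicate 3. The part of Myl7 or of atrial muscle in the Fmod value was not tested.

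Versican had the lowest fold change of the 8 members. Vcan stood at 81.0, 72.6 and 114 CPM in the Treg libraries and at 94.5, 173 and 256 CPM in the control libraries. Controls 2 and 3 lay above all Treg libraries, and control 1 among them. Its log2 fold change was −0.97 ± 0.35 (edgeR adjusted p = 0.262; DESeq2 adjusted p = 0.089). Its sign was negative in every fit run; the value was −0.59 without control replicate 3 and −1.26 without control replicate 1. Over the 5 libraries other than control replicate 3, log2 Vcan correlated with log2 Aspn at 0.90 and with log2 Bgn at 0.85. Over all 6 libraries these correlations were −0.34 and −0.01. The table counts whole genes, so the versican isoforms with and without the long sugar-bearing exons were not separated.

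**Figure D3:**
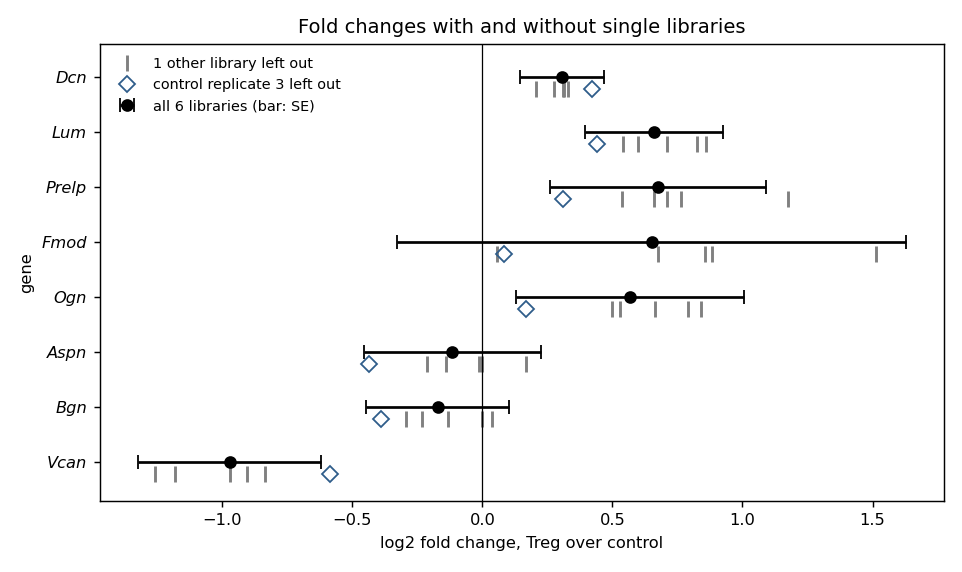
Log2 fold change, Treg over control (horizontal axis), of each gene (vertical axis): black points with SE bars use all 6 libraries, grey ticks leave out 1 other library, and open diamonds leave out control replicate 3. Dcn, Lum, Prelp, Fmod and Ogn stay right of 0 and Vcan left of 0 in these fits, while Bgn and Aspn cross it; without control replicate 3 the values of Lum, Prelp, Fmod, Ogn and Vcan move toward 0.

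Ratios within a library, which need no scaling between libraries, were taken of Vcan and of Bgn to Dcn. Vcan had the lowest fold change of the members and Dcn was higher in every Treg library, so their ratio combines these differences. The log2 ratio of Vcan to Dcn counts was −3.31, −3.44 and −2.90 in the Treg libraries, against −2.79, −1.71 and −1.57 in the control libraries. Every Treg library lay below every control. The means differed by −1.20 (two-sided exact permutation p = 0.1, the smallest that 3 against 3 can give). The log2 ratio of Bgn to Dcn was 0.10, −0.41 and 0.13 in the Treg libraries and 0.52, 1.02 and −0.33 in the control libraries. These overlapped, with a difference of means of −0.46 (exact permutation p = 0.4).

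One control library shaped many of these values. Control replicate 3 was the lowest of the 6 libraries for 5 members, Lum, Fmod, Ogn, Prelp and Aspn, and the highest for Vcan. Over all tested genes it was the lowest for 31.9% and the highest for 33.3%. In 3 members, Fmod, Ogn and Prelp, it lay more than 2-fold below each of the other libraries, as it did for 4.89% of all genes; in the other 5 libraries that share was 0.0691% to 0.524%. Its log2 CPM correlated with the other libraries at 0.933 to 0.955, and they with each other at 0.966 to 0.990. Decorin was the member nearest its usual level there, 0.06 above its 6-library mean on the log2 scale. In the same library monocyte and neutrophil markers stood at a median of 1.27 and erythroid genes at −2.0 relative to their 6-library means (log2). The monocyte marker Ccr2 went the other way, at 4.17 CPM in control replicate 3 and 6.92 to 16.5 CPM elsewhere. The part of these cell markers in the proteoglycan values was not tested.

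**Figure D4:**
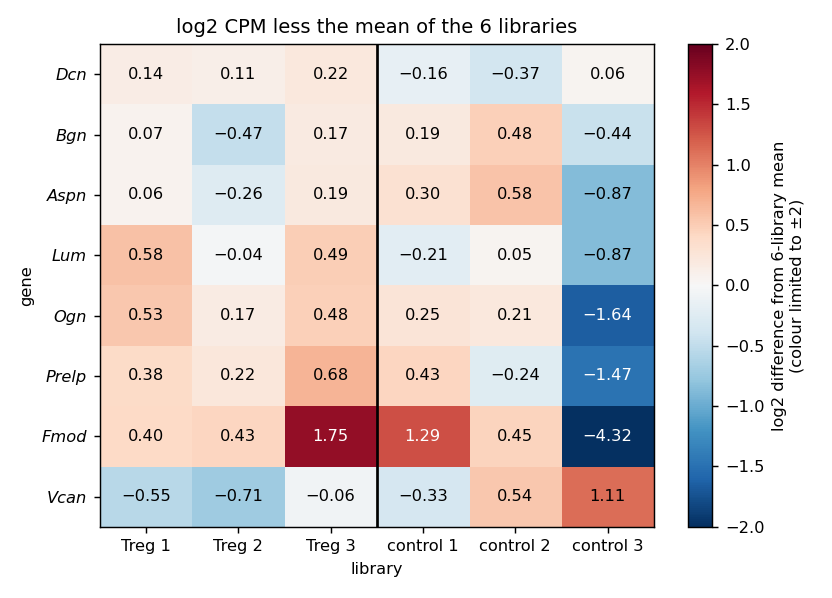
Log2 CPM of each gene (rows) in each library (columns, Treg left of control) less the gene's mean over the 6 libraries, with the value printed in each cell and the colour limited to ±2. Control replicate 3 runs from 0.06 for Dcn down to −4.32 for Fmod and up to 1.11 for Vcan.

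The family outside the 8 members gave 11 further genes, of which 6 were tested and 0 passed the edgeR threshold in either direction (median log2 fold change 0.37, and 0.01 to 0.90 when single libraries were left out). Podn, podocan, a collagen-binding family member, stood at 24.8, 18.5 and 21.5 CPM in the Treg libraries and at 13.0, 8.54 and 10.3 CPM in the control libraries. The groups did not overlap. Podn had a log2 fold change of 1.03 ± 0.20 (edgeR adjusted p = 0.12, DESeq2 adjusted p = 0.000954) and 0.89 to 1.21 when single libraries were left out. Ecm2, the neighbour of Aspn, also had its lowest level in control replicate 3, with 45.6, 41.2 and 46.7 CPM in the Treg libraries and 43.7, 30.7 and 6.67 CPM in the control libraries (0.72, edgeR adjusted p = 0.52). Without control replicate 3 its value was 0.26, and without control replicate 1 it was 1.26. Tsku, tsukushi, a secreted inhibitor of several growth factors, had −0.84 (edgeR adjusted p = 0.349), and −0.17 without control replicate 3, where it was at 17.6 CPM against 5.12 to 6.59 elsewhere. Omd, between Aspn and Ogn on the chromosome, was at 0.337 to 3.02 CPM. Chad, a cartilage family member, was at 0.361 to 0.785 CPM in the Treg libraries and at 0 to 0.351 CPM in the control libraries. Kera, Optc and Epyc, the relatives beside Lum and Prelp, were too low to test, with highest levels of 0.0942, 0.144 and 0.879 CPM.

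Versican works with hyaluronan, a free sugar polymer of the matrix, and its genes were taken as a list of 21. Of 16 tested, 0 passed in either direction by edgeR and 10 had fold changes below 0 (median −0.34). Omitting control replicate 3 brought the median to −0.12, and omitting Treg replicate 2 to −0.20. Cd44, the main hyaluronan receptor, stood at 14.7, 13.7 and 20.6 CPM in the Treg libraries and at 20.2, 38.0 and 118 CPM in the control libraries. Treg replicate 3 just overlapped control replicate 1. The estimated log2 fold change was −1.84 ± 0.59 (edgeR adjusted p = 0.234; DESeq2 adjusted p = 0.0175), and −0.83 without control replicate 3. Cemip, a hyaluronan-degrading protein, had −1.59 (edgeR adjusted p = 0.254) and Hyal2, a hyaluronidase, −0.29 (edgeR adjusted p = 0.303). Acan, the large cartilage proteoglycan aggrecan, had 0.96 (edgeR adjusted p = 0.295) on 6 to 20 counts per library, and 0.63 without Treg replicate 1. Chosen after their values were seen, Has1, a hyaluronan synthase, and Tnfaip6, which attaches proteins to hyaluronan, were at 9.22 and 19.9 CPM in control replicate 3 and at no more than 2.06 and 3.58 CPM in any other library. Others of the list went the other way. Has3, another synthase, and Hyal1, a hyaluronidase, were lowest in control replicate 3, at 3.37 and 4.51 CPM. Elsewhere Has3 was at 5.86 CPM or more and Hyal1 at 12.27 CPM or more.

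Among 17 proteases that cut versican or other proteoglycan cores, all tested, 0 passed the threshold by edgeR, 13 had fold changes below 0, and the median was −0.59. Without control replicate 3 it was −0.30. Adamts4, an enzyme that cleaves versican and aggrecan, stood at 1.19, 0.757 and 1.29 CPM in the Treg libraries and at 4.18, 7.15 and 15.1 CPM in the control libraries, without overlap. Its log2 fold change was −3.02 ± 0.50 (edgeR adjusted p = 0.0989, and 0.0237 without control replicate 3, a fit in which 1.30% of genes passed). DESeq2 called Adamts4 and Mmp14 lower with all 6 libraries (adjusted p = 2.1e-07 and 5.75e-06). These were 2 of the 15 genes of this list to which it gave an adjusted p. Over all genes with an adjusted p it called 3.79%, in either direction. Mmp14, a membrane-bound collagenase, stood at 42.3, 31.2 and 44.7 CPM in the Treg libraries and at 74.3, 92.7 and 88.8 CPM in the control libraries, also apart, and had −1.11 ± 0.17 (edgeR adjusted p = 0.0989, and 0.0393 without control replicate 3). Adamts15, another versican-cutting enzyme, stood at 8.61, 5.73 and 7.07 CPM in the Treg libraries and at 8.95, 10.3 and 23.4 CPM in the control libraries. It had −0.99 (edgeR adjusted p = 0.276), and −0.43 without control replicate 3. Mmp12, macrophage elastase, had −4.44 (edgeR adjusted p = 0.268) and −0.21 without control replicate 2, which alone stood at 109 CPM against 0.673 to 3.30 elsewhere.

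**Figure D5:**
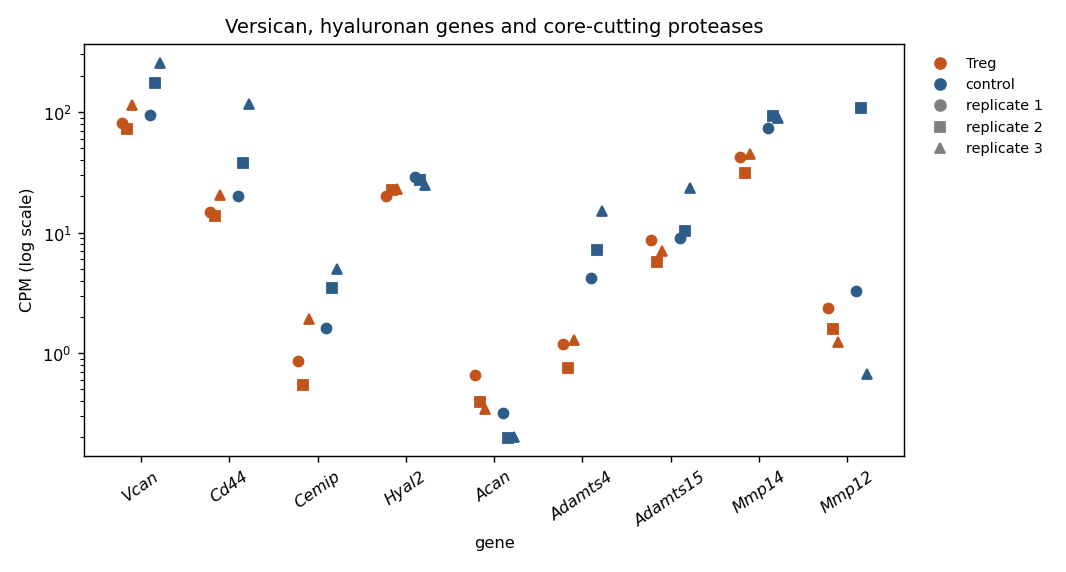
CPM on a log axis (vertical) of Vcan, 4 genes of hyaluronan and 4 core-cutting proteases (horizontal), with Treg libraries left of control libraries and symbols for the replicate number. Adamts4, Mmp14 and, narrowly, Adamts15 and Hyal2 are lower in every Treg library than in every control library; Vcan, Cd44 and Cemip overlap through control replicate 1, and Mmp12 is high in control replicate 2.

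The enzymes that build the sugar chains varied less. Of 22 tested genes for the linker and for chondroitin or dermatan sulfate, 0 passed the threshold, 16 had fold changes below 0, and the median was −0.16. Chpf2, a chondroitin polymerizing factor, stood at 26.2, 23.2 and 26.5 CPM in the Treg libraries and at 36.5, 38.4 and 46.8 CPM in the control libraries, without overlap (−0.68 ± 0.14, edgeR adjusted p = 0.135; DESeq2 adjusted p = 0.00358). Chst3, a chondroitin sulfotransferase, had −0.70, Chsy3, a chondroitin synthase, −0.89, and Csgalnact2, which starts the chain, −0.37 (edgeR adjusted p = 0.249, 0.291 and 0.292). For keratan sulfate 5 of 7 genes were tested and 0 passed (median −0.15). B4galt1, a galactosyltransferase of many glycans, had −0.63 (edgeR adjusted p = 0.225), with every Treg library below every control. Without control replicate 3, B4galt1 had −0.38 and Csgalnact2 −0.21.

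Heparan sulfate proteoglycans, the cell-surface and basement membrane counterparts, had a median of 0.02 over 12 tested genes, with 0 passing the threshold. Sdc1 and Sdc4, transmembrane syndecans, had −1.43 and −0.85 (edgeR adjusted p = 0.259 for each), while Gpc1, a glypican attached to the membrane by a lipid anchor, had 0.59 (edgeR adjusted p = 0.285) and Gpc3 0.49 (edgeR adjusted p = 0.312). Without control replicate 3, Sdc1 had −0.63, Sdc4 −0.40 and Gpc1 0.37. Among 13 collagens that the small proteoglycans decorate, 0 passed by edgeR and 10 were below 0 (median −0.40). Their median ranged over −0.70 to −0.05 when single libraries were left out, with Treg replicate 3 omitted at the low end and control replicate 2 at the high end; it was −0.09 when Treg replicate 2 was omitted. The minor fibril collagen Col5a3 stood at 29.1, 26.0 and 36.0 CPM in the Treg libraries and at 71.0, 62.9 and 79.6 CPM in the control libraries, without overlap. It had −1.23 (edgeR adjusted p = 0.0871, DESeq2 adjusted p = 1.29e-07). Col5a2 and Col5a1 had −0.80 and −0.59 (edgeR adjusted p = 0.21 and 0.305, DESeq2 adjusted p = 0.0316 and 0.215). Col5a3 and Col5a2 were the 2 of 13 collagens with every Treg library below every control library, against 11.7% of all genes. Without Treg replicate 2, Col5a1 had −0.38. Of 16 receptors and growth factors reported to bind biglycan or decorin, 0 passed and 12 were below 0 (median −0.18). Tgfb2, a TGF-beta ligand, had −0.76 (edgeR adjusted p = 0.164; DESeq2 adjusted p = 0.0171), Ccn2 −0.625 and Itgb1, an integrin chain, −0.45 (edgeR adjusted p = 0.285 and 0.249).

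Fibroblast markers varied alongside some of these values, and their part in them was not tested. The 11 resting fibroblast markers were all tested, 0 passed, and their median was 0.31, with 0.14 to 0.44 when single libraries were left out; their summed level was 1462 to 1699 CPM in the Treg libraries and 923 to 1285 CPM in the control libraries. Gsn, gelsolin, which heart muscle cells express too, made up the largest part of that sum, followed by Pi16 and Dpt. Without Gsn, a choice made after its values were seen, the sums overlapped, at 637 to 770 CPM in the Treg libraries and 573 to 712 CPM in the control libraries. The 12 activated fibroblast markers, led by Postn, Fn1 and Cilp, had a median of −0.30, which was 0.06 without control replicate 2, with 0 passing and summed levels of 1386 to 2485 CPM in the Treg libraries and 1893 to 3580 CPM in the control libraries. Relative to the mean log2 level of the resting markers in the same library, Dcn averaged 3.58 ± 0.15 in Treg libraries and 3.57 ± 0.26 in control libraries, a difference of 0.01 (exact permutation p = 1). Vcan averaged 0.37 ± 0.40 in Treg libraries and 1.55 ± 0.87 in control libraries on this scale, a difference of −1.19 (exact permutation p = 0.2, 0.8 adjusted over the 8 members). The other members had exact p between 0.2 and 0.8. The marker mean used here included Gsn, and also Mfap4, at 11.4 CPM in control replicate 3 and 69.1 to 125 CPM elsewhere. These differences were not recomputed without those markers.

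Markers of other cell types differed in level. Smooth muscle and pericyte markers summed to 895 to 1107 CPM in the Treg libraries and 670 to 937 CPM in the control libraries; 0 of 8 passed by edgeR, and their median was 0.20. Macrophage markers summed to 452 to 663 CPM in the Treg libraries and 443 to 1052 CPM in the control libraries; 0 of 10 passed, and their median of 0.21 was 0.03 to 0.37 when single libraries were left out. Their part in the proteoglycan values was not tested. Mesothelial or epicardial markers summed to 5.47 to 7.72 CPM in the Treg libraries and 6.25 to 7.47 CPM in the control libraries. Cartilage and tendon markers summed to 20.2 to 28.6 CPM in the Treg libraries and 10.2 to 25.9 CPM in the control libraries, mostly Scx and Sox9, while the cartilage collagen Col2a1 was at 0.0989 to 0.774 CPM. Of 10 heart muscle markers 0 passed by edgeR, 7 had fold changes above 0 and 3 below. Their median was 0.19, and 0.02 without control replicate 3. Myl2, the ventricular myosin light chain, is named outside the rule given below for named genes. It was at 3448 to 5026 CPM in the Treg libraries and 2176 to 3048 CPM in the control libraries. Ventricular muscle was thus present in all 6. Every Treg library lay above every control library for 3 of the 10, Pln, Myl2 and Actc1, as for 13.7% of all genes. They had 0.56, 0.59 and 0.30 (edgeR adjusted p = 0.234, 0.261 and 0.379). Every Treg library lay below every control library for 1, Actn2, as for 11.7% of all genes (−0.35, edgeR adjusted p = 0.292). Pln, Actc1 and Actn2 are likewise named outside that rule.

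Many other genes followed the mean of the 8 members over the 6 libraries, although the members did not share a common course. Log2 Vcan correlated with log2 Prelp at −0.85 and log2 Dcn with log2 Bgn at −0.56, while log2 Fmod correlated with log2 Ogn at 0.96. Among the centred levels that were averaged, the one farthest from 0 was that of Fmod in control replicate 3, at −4.32. The mean centred log2 level of the 8 members was most like that of Scai, Ankrd27, Smim14, Cbx6 and Lrrk2, with Pearson correlations of 0.994, 0.991, 0.991, 0.991 and 0.989 among 8388 genes at a mean of at least 10 CPM. There were 375 genes above 0.9. The level of Vcan alone was closely matched by that of Sec22b, Iqgap1, Snx7 and Taf2, at 0.998, 0.997, 0.997 and 0.997, with 561 genes above 0.9. These correlations rest on 6 libraries, of which control replicate 3 lies farthest out.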

How the data were processed

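The authors deposited 1 table of 47729 Ensembl gene IDs, whose values are estimated counts with no normalization. In each library 46.5% to 50.0% of values above 0 were not whole, and how the fractions arose is not stated. The submitters' processing notes name featureCounts 2.0.6, HISAT2 2.1.0, Trimmomatic 0.39, Cuffdiff 2.2.1 and GRCm38, with no roles. Another 6 columns match no sample listed here and were not used. GENCODE M21 named 47310 of the IDs.

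Values were rounded to whole numbers. Genes were kept by filterByExpr (17365), scaled by TMM and tested in edgeR 4.0.16 (R 4.3.3) with robust quasi-likelihood F tests, two-sided, without covariates. SE is the log2 fold change over the square root of F. DESeq2 1.42.0 and limma 3.58.1 were alternatives, with other scalings, filters and left-out libraries. The fits were tested on simulated data. Pairs of libraries differed with a chi-square per degree of freedom of 17.7 to 137, so none agreed within sampling noise. No label ties each library to its own animal, so the spread behind each p-value may be technical.

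The members and gene lists were chosen with earlier results of these data known. Named genes were all members, up to 4 of smallest p in each list, the most abundant markers, family neighbours, and the 5 genes most alike in pattern, of which 1 is not reported here; a gene named outside this rule is said to be.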

Additional observations from a re-analysis of the deposited data

How the results depend on the processing

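The number of genes past the threshold moved with the tool and with 1 library: it was 0 in the comparison of all 6 libraries, 644 with DESeq2, 231 with sample quality weights in limma-voom, 38 without a filter, 119 with control replicate 3 and Treg replicate 3 both left out, 82 at an adjusted p of 0.1, and 0 to 230 when single libraries were left out. The 230 were without control replicate 3. The cause was not tested. The number of the 8 members past the threshold was 0 in all of these. Of 152 alternative fits of member fold changes, 149 kept their direction and side of the threshold. The exceptions were Bgn (−0.39 to 0.039) and Aspn (−0.44 to 0.17) when single libraries were left out, and Fmod, at −0.52 with control replicate 3 and Treg replicate 3 both left out. Relative to resting fibroblast markers, differences when single libraries were left out were −0.085 to 0.16 for Dcn, −0.27 to 2.40 for Fmod, −0.11 to 0.84 for Ogn and −0.71 to 0.030 for Aspn. With those 2 libraries left out they were −0.76 for Fmod, −0.19 for Ogn and −0.10 for Prelp. The difference in the log2 ratio of Vcan to Dcn stayed negative, at −1.58 to −0.97, and so did that in the log2 ratio of Bgn to Dcn, at −0.83 to −0.16, when single libraries were left out. With the replicate number as a block, 0 genes and 0 members passed, and Vcan had −0.89 (edgeR adjusted p = 0.272); it changed no call. The numbers were not taken as pairs, since deviations of same-numbered libraries correlated at −0.14, −0.24 and 0.04. At 14 counts, the Fmod value of control replicate 3 is the member value most limited by depth.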
